A study of Mus musculus with 17 samples.

Results

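The Slc25 family was taken as the protein-coding genes whose symbol begins with Slc25a in the mouse annotation GENCODE M21 (genome build GRCm38). This gave 47 of the 54838 gene IDs in the count tables, and 43 of the 47 had enough reads to be tested among 24523 genes. Bulk RNA sequencing covered haematopoietic stem cells (HSCs), the bone marrow cells that renew themselves and give rise to all blood lineages, in 17 libraries from C57BL/6 Jrj mice. The cells had been sorted as lineage-negative, cKit+, Sca1+, CD48- and CD150+. The young control group (n = 4 libraries) came from mice of 8 to 12 weeks and the old control group (n = 3) from mice older than 18 months. The young CCCP group (n = 5) had received 1 intraperitoneal injection of CCCP, a protonophore that uncouples mitochondrial respiration from ATP synthesis, at 0.3 mg/kg. The old Mito-Q group (n = 5) had received 5 daily intraperitoneal injections of Mito-Q, an antioxidant built on ubiquinone and targeted to mitochondria, at 2 mg/kg. The labels do not state whether controls received vehicle, when cells were taken after the last injection, or whether each library came from its own mouse, so p-values measure the spread between libraries, which may be technical.

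Slc25 proteins are carriers that sit mostly in the inner mitochondrial membrane and exchange nucleotides, phosphate, carboxylates, amino acids, cofactors and metal ions between cytosol and matrix. They are encoded in the nucleus, made in the cytosol and inserted by a dedicated import route of small Tim chaperones and the TIM22 complex. HSCs are known for relying on glycolysis more than their progeny do, and the ADP/ATP and phosphate carriers serve the exchange on which oxidative ATP supply depends.

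By age, the carriers of smallest p were Slc25a25, an ATP-Mg/phosphate carrier regulated by calcium, and Slc25a36, a pyrimidine nucleotide carrier. Both had a cAMP response element, TGACGTCA, in front of an annotated start. These sequences are shown because, for both transcripts, every old control and CCCP library lay below every young control. None of these differences was called by edgeR, the main test described below. Whether the element bears on these levels was not tested. Sequences are from RefSeq (GRCm38.p6), run 5′ to 3′ on the strand of the gene, and stop before the first base of any annotated exon. Capitals mark the element, which begins 150 bases before 1 of the 3 RefSeq starts tabulated for Slc25a25 and 161 bases before that of Slc25a36. The Slc25a25 stretch is chr2:32424067-32424316 and the Slc25a36 stretch is chr9:97111158-97111291, both on the minus strand.
Slc25a25: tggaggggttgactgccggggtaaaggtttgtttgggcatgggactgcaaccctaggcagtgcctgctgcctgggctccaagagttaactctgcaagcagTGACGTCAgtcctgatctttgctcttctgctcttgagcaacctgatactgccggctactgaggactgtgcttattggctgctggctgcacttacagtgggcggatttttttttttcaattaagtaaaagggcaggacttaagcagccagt
Slc25a36: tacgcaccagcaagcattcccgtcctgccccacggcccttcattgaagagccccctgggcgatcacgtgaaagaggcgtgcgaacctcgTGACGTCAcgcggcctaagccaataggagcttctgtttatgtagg

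RefSeq promoter windows of 300 bases (250 before and 50 after a start) matched 36 of the 47 carriers, in 46 windows. TGACGTCA, which reads the same on both strands, stood in 1.79% of 32851 windows of all genes and in no other carrier's window. The AP-1 site TGANTCA, searched on both strands like the rest, was found for Slc25a11 and Slc25a13 and in 7.81% of all windows. The NRF1 core GCATGCGC was found for Slc25a31 and Slc25a54 (2.71% of all windows), and the YY1 site AAGATGGC for Slc25a3 (2.75%). The estrogen-related receptor site TCAAGGTCA (0.423% of all windows) and the ATF4 and C/EBP composite site TGATGNAA (3.97%) were in no carrier's window. None of the 6 motifs contains another, and a match is a description of the sequence only.

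Each library held between 5649611 and 8120443 reads in genes, and 3 reads, used as the floor for detection, equalled 0.294 to 0.651 CPM (read counts scaled to library size with TMM factors). Reads assigned to no gene made up 37.7% to 76.2% of all reads, highest in young CCCP 3 and second in old control 1 at 68.8%. Young CCCP 3 stood apart, with a median Spearman correlation to the other libraries of 0.682, against 0.799 to 0.863 for the rest. The 10 HSC markers all had reads in every group and summed to between 1770 and 4500 CPM. Summed neutrophil and granule markers were 444 to 2200 CPM in young controls, 769 to 16400 in young CCCP, 1080 to 2390 in old controls and 986 to 14300 in old Mito-Q libraries, with reads for 12 of 12 genes in every group. Erythroid markers summed to 104 to 283, 179 to 1310, 115 to 367 and 113 to 844 CPM in the same order. Megakaryocyte and platelet markers summed to 762 to 2320 CPM over all libraries, B cell markers to 43.6 to 196, T and NK cell markers to 90 to 242, monocyte and dendritic cell markers to 13.2 to 166, and stroma and endothelium markers to 33.3 to 195. Of these genes, Gp1bb had no read in young controls and Cd8a none in old controls and old Mito-Q libraries. A set of 18 immediate early genes, which respond to acute stimulation, summed to 9360 to 16600, 482 to 866, 1130 to 2080 and 18100 to 31100 CPM. In bulk RNA, fewer cells of a type and less RNA per cell cannot be told apart.

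The family as a whole contributed 0.131% to 0.374% of gene reads, and a few carriers dominated it. Levels per length are given as RPKM, reads per kilobase of merged exons scaled like CPM, with the SD over the 17 libraries. Slc25a5, the ADP/ATP exchanger of proliferating cells, averaged 558 ± 256 RPKM and was the highest carrier in 17 of 17 libraries. Slc25a11, the oxoglutarate/malate carrier of the malate-aspartate shuttle, followed at 113 ± 44.9 RPKM. Then came Slc25a3, the phosphate carrier, at 76.7 ± 24.6 RPKM, Slc25a4, the ADP/ATP exchanger of heart and muscle, at 67.9 ± 30, and Slc25a1, the citrate carrier, at 57.5 ± 15.5. Slc25a39, a glutathione carrier, stood at 53.3 ± 13.4 RPKM and the peroxisomal carrier Slc25a17 at 23.9 ± 9.47. The neighbours after Slc25a5 did not keep their order in every library: Slc25a11 exceeded Slc25a3 in 14 of 17 libraries, Slc25a3 exceeded Slc25a4 in 10, Slc25a4 exceeded Slc25a1 in 12, and Slc25a1 exceeded Slc25a39 in 10. The top 5 carriers held 55.4% to 85.5% of the family's level per length. With the longest annotated transcript as length, 4 of these 5 remained among the top 5.

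**Figure D1:**
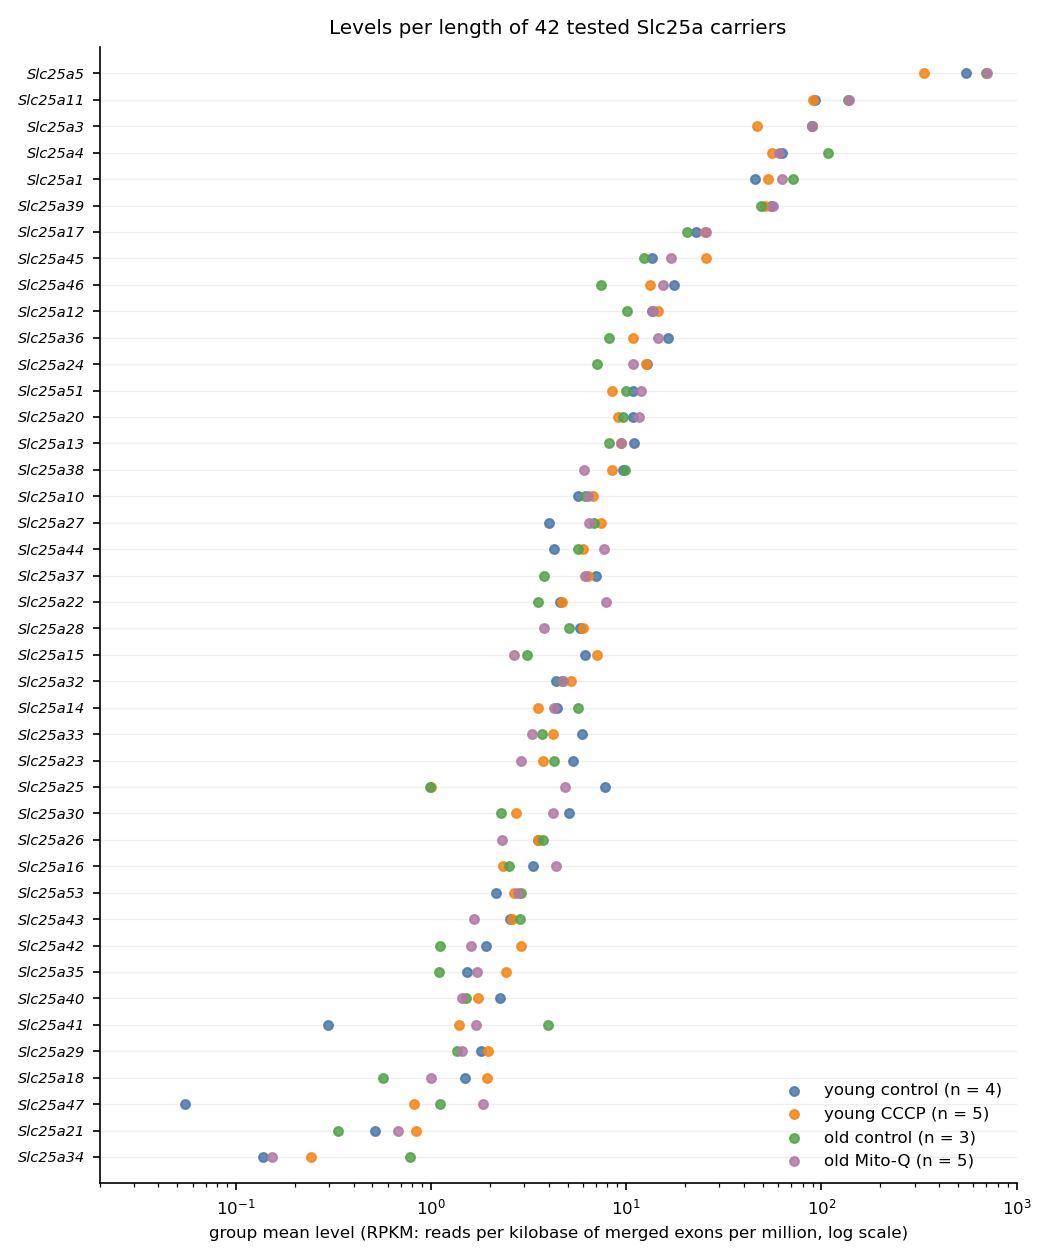
Mean level per length (RPKM, log scale) of 42 of the 43 tested Slc25a carriers in each of the 4 groups, ordered by the mean over all libraries. Slc25a5 lies to the right of every other carrier in all groups, and Slc25a25 shows 2 low groups (young CCCP and old control) and 2 higher ones.

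At the low end, Slc25a31, the testis ADP/ATP exchanger, had 28 reads over all libraries, Slc25a2, an ornithine carrier, had 11, Slc25a48 had 22 and Slc25a54 had 98. These 4 carriers were not tested. In Slc25a54, 10.7 CPM in young CCCP 3 exceeded the 1.28 CPM of the next library. Slc25a47, a liver-enriched carrier, and Slc25a34 were tested at mean levels of 0.991 and 0.285 RPKM. Their low counts make the fitted fold changes imprecise.

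The 3 comparisons that follow were old control with young control (by age), old Mito-Q with old control, and young CCCP with young control. The comparisons by age and with Mito-Q share the old controls, and those by age and with CCCP share the young controls, so their values are given side by side and are not independent. No carrier passed an adjusted p of 0.05 in any of the 3 with edgeR's quasi-likelihood test. Among all genes tested, that test called 1.69% by age (128 higher, 287 lower, or 190 and 237 with upper-quartile factors), 0.542% with Mito-Q and 0.718% with CCCP. The calls by age varied with single old controls: without old control 1 there were 404 higher and 280 lower, and without old control 2 or 3 there were 125 or 140 in all. At an unadjusted p below 0.05, 7 of 43 carriers (16.3%) differed by age, against 14.2% of all genes. With Mito-Q these were 4 carriers (9.3%) against 10%, and with CCCP 6 carriers (14%) against 11.2%. Groups did not overlap in CPM for 8 carriers by age (18.6%, all genes 11.5%), 2 with Mito-Q (4.65%, all genes 6.06%) and 3 with CCCP (6.98%, all genes 4.65%). Most of the family's shares were thus near those of all genes, with the widest gap for non-overlap by age.

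DESeq2's Wald test called 2 carriers lower by age, none with Mito-Q and 2 lower with CCCP. It called 6.98%, 2.17% and 2.93% of the 18055, 20361 and 18975 genes to which it gave an adjusted p. The edgeR shares above are over 24523 genes. With limma-voom, no carrier was called by age or with Mito-Q and 1, Slc25a25, was called lower with CCCP. The median log2 fold change of the 43 carriers was -0.17 by age, 0.08 with Mito-Q and 0.04 with CCCP, beside 0.16, -0.12 and 0.21 over all genes tested. The all-gene medians by age and with Mito-Q had no stable direction: with the share of unassigned reads as a covariate they were -0.12 and 0.12 (0.01 with CCCP), and without old control 1 they were -0.35 by age and 0.31 with Mito-Q. The standard errors of the carriers' log2 fold changes had a median of 0.61, 0.58 and 0.54, beside 1.26, 1.20 and 1.12 over all genes tested. The shares above therefore compare genes of unlike precision.

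**Figure D2:**
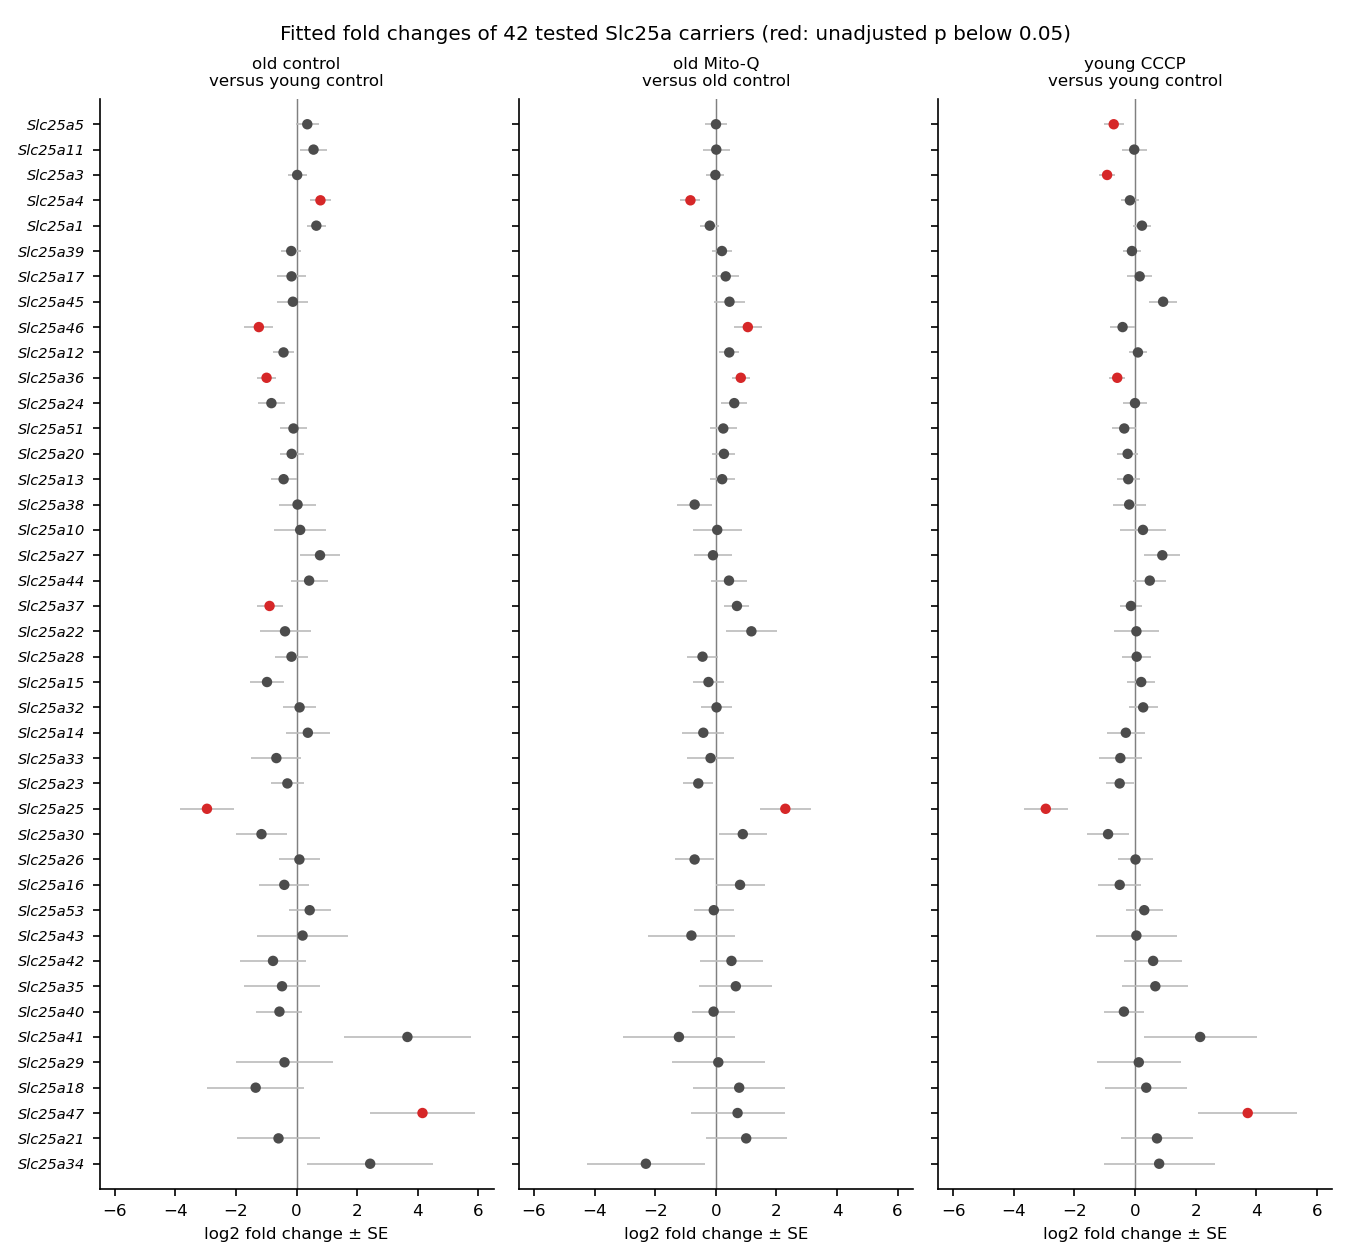
Fitted log2 fold changes with standard errors of 42 of the 43 tested carriers in the 3 comparisons, ordered by level per length, with red points for an unadjusted p below 0.05. Slc25a25 lies at -2.96 by age, 2.29 with Mito-Q and -2.95 with CCCP, and most other carriers lie within 1 of zero.

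Among the ATP-Mg/phosphate carriers, which load the matrix with adenine nucleotides, Slc25a25 (ENSMUSG00000026819, chr2:32414487-32451445 on GRCm38) showed the widest separation. It measured 58.2, 41.8, 40.6 and 103 CPM in the young controls and 11.7, 4.75 and 6.70 CPM in the old controls. Young CCCP libraries had 13, 13.5, 0, 1.89 and 10.7 CPM, and old Mito-Q libraries had 89.3, 23.7, 24.2, 16 and 38.2 CPM. All young controls were above all old controls and all CCCP libraries, and all Mito-Q libraries were above all old controls. The library at 0 was young CCCP 3, where 0 reads allow a level of up to 0.573 CPM.

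Between old and young controls the log2 fold change of Slc25a25 was -2.96 (SE 0.89, edgeR adjusted p = 0.0946). With CCCP it was -2.95 (SE 0.72, edgeR adjusted p = 0.0559), and with Mito-Q it was 2.29 (SE 0.84, edgeR adjusted p = 0.341). DESeq2 called the age difference (-2.84, adjusted p = 0.0125) and the CCCP difference (-2.91, adjusted p = 0.00383) but not that with Mito-Q (2.20, adjusted p = 0.132). Without young CCCP 3 the edgeR value with CCCP was -2.63 (adjusted p = 0.0226), and it passed the threshold that it missed with that library in the fit. Without both that library and young control 3, the age difference was -3.13 (edgeR adjusted p = 0.00697). The fit without both called 1271 of 23419 genes by age, against 415 of 24523 in the reported fit. Slc25a25 was high and low in the same groups as the immediate early genes, whose part in the result was not tested. Of its merged exon length, 4.82% overlaps Naif1 on the other strand, and reads of the pair cannot be told apart there without strand information.

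Slc25a24, a calcium-regulated relative of Slc25a25, had 59.5, 53.2, 20.4 and 40.6 CPM in young controls and 30.6, 22.0 and 20.1 CPM in old controls. It had 41.0, 51.5, 18.0, 60.5 and 45.3 CPM with CCCP and 23.2, 37.7, 39.2, 36.3 and 49.6 CPM with Mito-Q. Its groups overlapped in each comparison. The log2 ratio of Slc25a24 to Slc25a25 reads, which does not depend on scaling, averaged -0.49 ± 0.80 (SD, n = 4) in young controls, 1.72 ± 0.42 (n = 3) in old controls, 3.63 ± 2.57 (n = 5) with CCCP and 0.19 ± 1.23 (n = 5) with Mito-Q. Young CCCP 3, with 0 reads of Slc25a25, had a ratio of 7.56 that the added 0.5 sets, and without it the difference between CCCP and young controls was 3.14 in place of 4.12. The ratio was higher in every old control and CCCP library than in any young control, and lower in every Mito-Q library than in any old control. The two-sided exact permutation p was 0.0571 by age, 0.0159 with CCCP and 0.0357 with Mito-Q, in each case the smallest that the group sizes allow. Adjusted over 18 tests (6 pairs of related carriers in 3 comparisons), each of these permutation p-values was 0.206, and none of the 18 passed 0.05. By age none could pass, since the smallest possible p of 0.0571 is above 0.05 before adjustment. A single pair at its smallest p could not pass with CCCP or Mito-Q either, so the lack of passing ratios says little.

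**Figure D3:**
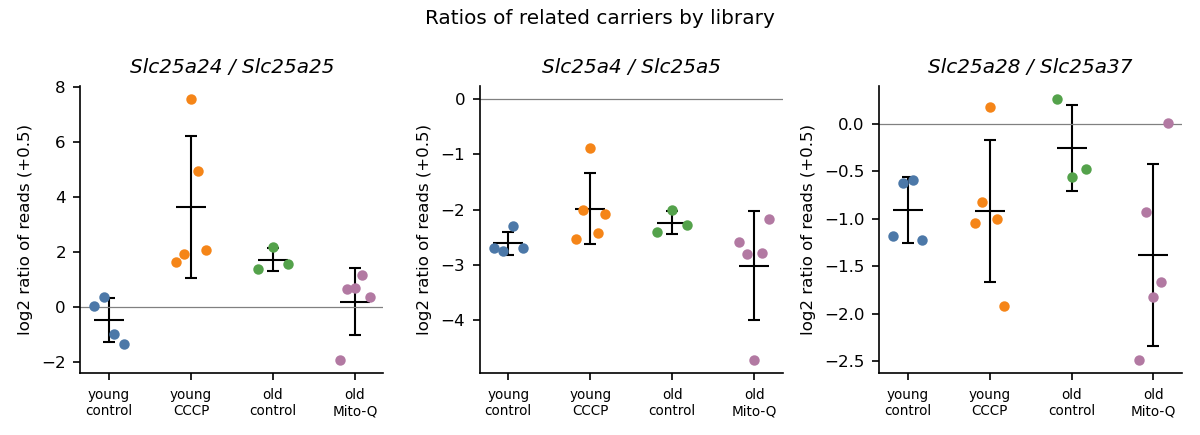
Log2 ratio of reads (0.5 added to each count) for 3 pairs of related carriers, with 1 point per library and bars for the group mean and SD. For Slc25a24/Slc25a25 the young controls lie between -1.34 and 0.35 and the old controls between 1.39 and 2.19.

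Per length, Slc25a24 averaged 11.1 RPKM, Slc25a23 3.95, Slc25a25 3.72 and Slc25a41 1.68 over the 17 libraries. Slc25a23 ranged from 7.49 CPM in an old Mito-Q library to 45.6 CPM in a young control. Slc25a41 was at 0 in 3 of the 4 young controls and reached 13.1 CPM in an old control.

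Slc25a36 (ENSMUSG00000032449, chr9:97074961-97111157) measured 148, 170, 170 and 139 CPM in young controls and 100, 77.5 and 57.3 CPM in old controls. It was at 93.9, 122, 77.0, 116 and 111 CPM with CCCP and at 200, 102, 150, 96.8 and 147 CPM with Mito-Q. Young controls lay above all old controls and all CCCP libraries, while the Mito-Q group overlapped the old controls. The log2 fold change was -0.99 by age (SE 0.32, edgeR adjusted p = 0.123), 0.82 with Mito-Q (SE 0.30, edgeR adjusted p = 0.347) and -0.59 with CCCP (SE 0.27, edgeR adjusted p = 0.419). DESeq2 called the age difference (-0.90, adjusted p = 0.0412). One other annotated gene, Gm13217, holds a stretch of 544 bases that is 99.6% identical to Slc25a36. Reads that fit both may have been assigned to no gene or to the wrong one.

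**Figure D4:**
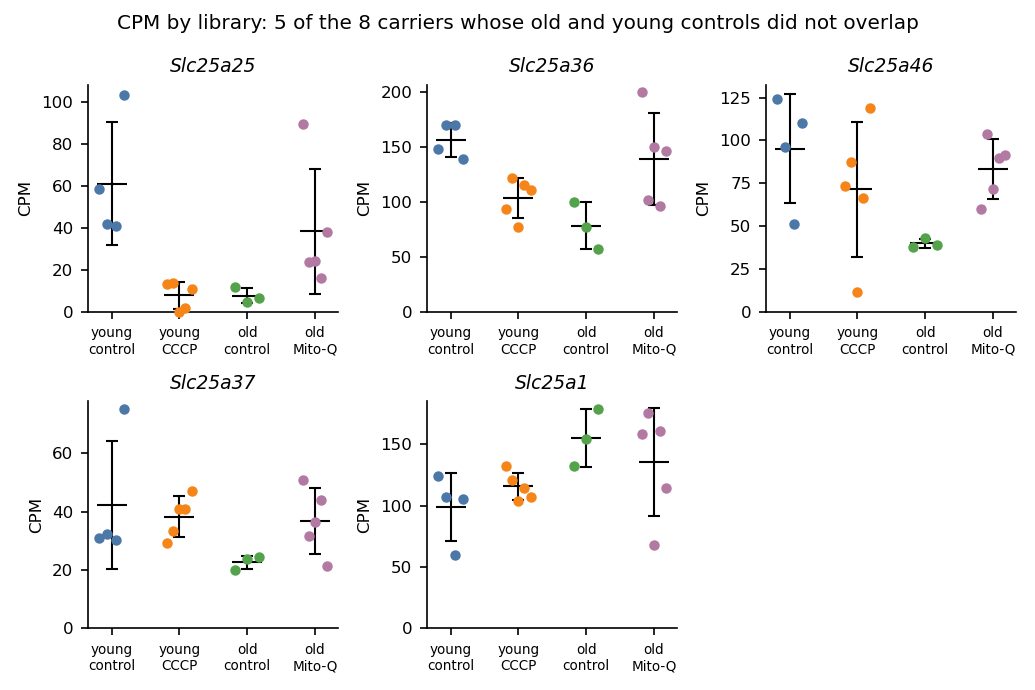
CPM in each library for 5 of the 8 carriers whose old and young controls did not overlap, with bars for the group mean and SD. Slc25a25, Slc25a36, Slc25a46 and Slc25a37 are lower in the old controls than in the young controls, and Slc25a1 is higher.

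Of the other cofactor and nucleotide carriers, Slc25a51, the NAD carrier, averaged 59.4 ± 33.7 CPM in young controls (SD, n = 4) and 55.2 ± 19 CPM in old controls (n = 3). Slc25a26, which imports S-adenosylmethionine, averaged 16.9 ± 4.75 and 17.9 ± 7.45 CPM in the same groups.

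Among the ADP/ATP and phosphate carriers, the CCCP group had the lowest mean of Slc25a3 and of Slc25a5. Slc25a3 (ENSMUSG00000061904, chr10:91116574-91124059) measured 542, 565, 347 and 519 CPM in young controls and 273, 258, 117, 315 and 334 CPM with CCCP. No CCCP library reached the lowest young control. The log2 fold change was -0.92 (SE 0.27, edgeR adjusted p = 0.181), and DESeq2 called it (-0.87, adjusted p = 0.0178). Old controls had 374, 579 and 542 CPM and old Mito-Q libraries 528, 532, 504, 538 and 367 CPM, within the range of the young controls apart from the old control at 579 CPM.

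Slc25a5 had 1010, 1050, 732 and 827 CPM in young controls and 600, 550, 223, 795 and 596 CPM with CCCP. One CCCP library overlapped the young controls, and the log2 fold change was -0.70 (SE 0.34, edgeR adjusted p = 0.437). Old controls spread widely, at 527, 1430 and 1500 CPM, and Mito-Q libraries had 882, 1200, 1970, 895 and 834 CPM. The 3 annotated genes Gm5256, Gm5529 and Gm5560 hold stretches of 594 to 900 bases that are 95.3% to 98.3% identical to Slc25a5. Reads that fit more than 1 of these genes may have been assigned to no gene or to the wrong one. Summed neutrophil markers reached higher values with CCCP than in young controls (up to 16400 against 2200 CPM), and their part in the Slc25a3 and Slc25a5 values was not tested.

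Slc25a4 had 156, 157, 149 and 128 CPM in young controls and 99.3, 355 and 308 CPM in old controls. Mito-Q libraries had 147, 172, 74.4, 131 and 186 CPM and CCCP libraries 104, 138, 120, 149 and 142 CPM. Old control 1 was the lowest of the old controls and lay below all young controls, while the other two lay above all of them. The log2 fold change was 0.79 by age (SE 0.35, edgeR adjusted p = 0.308) and -0.84 with Mito-Q (SE 0.33, edgeR adjusted p = 0.373). Without old control 1, the library with the second highest share of unassigned reads, it was 1.22 by age (edgeR adjusted p = 0.0413). The log2 ratio of Slc25a4 to Slc25a5 was -2.60 ± 0.20 (SD, n = 4) in young controls and -1.98 ± 0.65 (n = 5) with CCCP (two-sided exact permutation p = 0.0476, adjusted 0.206).

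**Figure D5:**
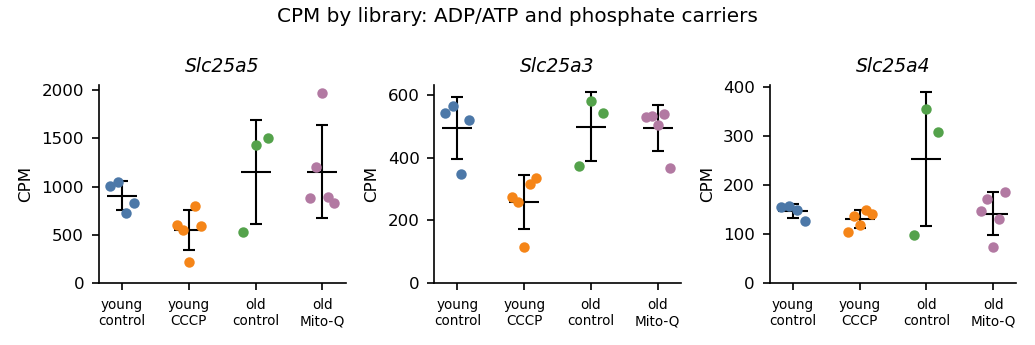
CPM in each library for Slc25a5, Slc25a3 and Slc25a4, with bars for the group mean and SD. All 5 CCCP libraries of Slc25a3 lie below the lowest young control at 347 CPM, and the old controls of Slc25a4 are split between 99.3 CPM and values above 300 CPM.

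Slc25a46, which has no known transport role and acts in the shape of mitochondria at the outer membrane, had 124, 96.0, 51.0 and 110 CPM in young controls and 38.1, 43.1 and 38.8 CPM in old controls. Mito-Q libraries had 60.2, 104, 71.9, 89.6 and 91.5 CPM and CCCP libraries 73.2, 87.2, 11.5, 66.2 and 119 CPM. The old controls lay below all young controls and all Mito-Q libraries, and the CCCP group overlapped the young controls, with young CCCP 3 at 11.5 CPM. The log2 fold change was -1.25 by age (SE 0.48, edgeR adjusted p = 0.223), 1.05 with Mito-Q (SE 0.46, edgeR adjusted p = 0.433) and -0.41 with CCCP (SE 0.40, edgeR adjusted p = 0.771). Without young control 3 and young CCCP 3, the age difference was -1.46 (edgeR adjusted p = 0.00497), in a fit that called 1271 of 23419 genes by age. B930094E09Rik on the other strand covers 7.06% of the merged exons of Slc25a46.

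Among the carriers of iron and glutathione, Slc25a37 (mitoferrin-1), the iron importer of erythroid cells, had 31.0, 32.5, 30.2 and 75.2 CPM in young controls and 20.1, 23.6 and 24.3 CPM in old controls. It had 29.2, 33.4, 40.9, 40.8 and 47.2 CPM with CCCP and 50.7, 31.6, 36.6, 43.9 and 21.4 CPM with Mito-Q. The old controls lay below all young controls (log2 fold change -0.89, SE 0.43, edgeR adjusted p = 0.346). Gm16867 and Gm37847 hold stretches of 382 and 381 bases identical to it.

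Slc25a28 (mitoferrin-2), the more widely used iron importer, averaged 21.7 ± 7.71 CPM in young controls (SD, n = 4) and 19.2 ± 4.32 CPM in old controls (n = 3). The log2 ratio of Slc25a28 to Slc25a37 was -0.91 ± 0.34 (SD, n = 4) in young and -0.26 ± 0.45 (n = 3) in old controls, without overlap (two-sided exact permutation p = 0.0571, the smallest possible; adjusted 0.206). Slc25a39 averaged 153 ± 37.0 CPM in young controls (SD, n = 4), 141 ± 31.2 with CCCP (n = 5), 135 ± 20.5 in old controls (n = 3) and 155 ± 54.2 with Mito-Q (n = 5). Its relative Slc25a40 averaged 18.8 ± 6.97, 14.5 ± 9.16, 12.6 ± 3.64 and 12.0 ± 6.97 CPM in the same order. Gm5066 holds a stretch of 724 bases that is 96.3% identical to Slc25a40, so reads that fit both may have been assigned to no gene or to the wrong one.

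Of the carboxylate carriers, Slc25a1, which exports citrate, had 124, 107, 59.5 and 105 CPM in young controls and 132, 154 and 179 CPM in old controls. The old controls lay above all young controls, with a log2 fold change of 0.65 (SE 0.32, edgeR adjusted p = 0.365). CCCP libraries ranged from 104 to 132 CPM and Mito-Q libraries from 68.0 to 175 CPM. Slc25a11 had 244, 223, 84.4 and 234 CPM in young controls, 236, 382 and 248 in old controls, 218, 258, 37.1, 176 and 273 with CCCP and 261, 375, 133, 361 and 330 with Mito-Q. Its lowest libraries were young CCCP 3 and young control 3, and its groups overlapped in every comparison. Rnf167 on the other strand covers 8.92% of the merged exons of Slc25a11.

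The amino acid and carnitine carriers differed little beyond the spread of their libraries, and none of the 9 tested had an unadjusted p below 0.05 in any comparison. The aspartate/glutamate carriers of the malate-aspartate shuttle averaged 99.8 ± 30.4 CPM for Slc25a12 and 41.8 ± 12.8 CPM for Slc25a13 in young controls (SD, n = 4), and 73.9 ± 20.4 and 30.9 ± 5.70 CPM in old controls (n = 3). Adpgk holds a stretch of 247 bases that is 99.6% identical to Slc25a12. The glutamate carrier Slc25a22 averaged 27.3 ± 20.3 and 21 ± 12.8 CPM in young and old controls, and its relative Slc25a18 averaged 2.86 ± 3.74 and 1.08 ± 1.40 CPM. Slc25a38, the glycine carrier needed for haem synthesis, averaged 26.5 ± 16.5 CPM in young and 27.0 ± 7.90 CPM in old controls.

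Slc25a47 was at 0.654 CPM in 1 young control and at 0 in the other 3, and at 5.85, 2.66 and 1.41 CPM in old controls. CCCP libraries had 2.94, 4.72, 1.15, 2.96 and 0.479 CPM and Mito-Q libraries 1.12, 9.35, 0, 0.648 and 16.4 CPM. The old controls lay above the young controls, but 3 of the 4 young controls had no read, so the fitted log2 fold changes of 4.15 by age (SE 1.75, edgeR adjusted p = 0.274) and 3.72 with CCCP (SE 1.64, edgeR adjusted p = 0.401) depend on the prior count. Without young control 1, the only young control with reads, they were 7.53 and 7.09. Slc25a34 had 0, 0.542, 0 and 0.922 CPM in young controls and 1.29, 2.28 and 2.65 CPM in old controls. These values lie near the floor in most libraries.

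The genes around the carriers were counted in 5 lists. One gene of these lists was called by edgeR in the 3 comparisons: Sfxn1, a serine transporter of the inner membrane, rose with age to 313 ± 123 CPM (SD, n = 3) from 110 ± 47.9 CPM (n = 4), a log2 fold change of 1.51 (SE 0.36, edgeR adjusted p = 0.0249). Its old controls ranged from 184 to 429 CPM and its young controls from 41.0 to 149 CPM. With only the groups of that comparison in the fit, Sfxn1 was not called. It was the only call among 15 other inner membrane transporters. None of the 4 tested same-fold carriers named otherwise, such as Ucp2 and Mtch2, and none of the 4 malate-aspartate shuttle enzymes was called by edgeR, while DESeq2 called Mdh2 higher by age (0.73, adjusted p = 0.0465).

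Of the 13 genes of the carrier import pathway, 0 were called by edgeR in any comparison, and 4 had an unadjusted p below 0.05 by age (all higher), 4 with Mito-Q (all lower) and 0 with CCCP. Among all genes tested, 14.2%, 10% and 11.2% had such a p in the 3 comparisons. The median log2 fold change of the import genes was 0.43 by age, with 10 of 13 above zero, beside 0.16 and 55.4% above zero for all genes. With Mito-Q it was -0.43, with 0 of 13 above zero, beside -0.12 and 44.9%. The old controls are shared by both comparisons. Timm9, a chaperone that escorts carriers across the space between the membranes, had log2 fold changes of 1.18 (SE 0.39, edgeR adjusted p = 0.140) by age and -1.43 (SE 0.37, edgeR adjusted p = 0.0896) with Mito-Q. DESeq2 called both, beside Timm10 and Timm13 by age, at 1.24 (adjusted p = 0.0206) and -1.49 (adjusted p = 0.00329). For Timm9 the old controls, at 65.7 to 154 CPM, overlapped neither the young controls nor the Mito-Q libraries. Those of Timm10 (53.1 to 178 CPM) and Timm13 (137 to 435 CPM) overlapped young controls (up to 56.4 and 205 CPM) and Mito-Q libraries (up to 112 and 221 CPM). The remaining import gene with such an unadjusted p was not the same gene by age and with Mito-Q. Groups overlapped for each of these genes in the comparison concerned. None of the 9 haem synthesis enzymes was called by edgeR, and all 9 had positive log2 fold changes with CCCP (median 0.43, beside 0.21 and 58.7% above zero for all genes). Summed erythroid markers had a median of 583 CPM there against 227 CPM in young controls, with overlapping ranges, and their part in the haem values was not tested. Alas1, the first enzyme of that pathway in most cells, was the only one that DESeq2 called with CCCP (1.54, adjusted p = 0.00586).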

How the data were processed

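Per the labels, RNA from sorted HSCs was made into bulk libraries with a reduced-volume Nextera XT protocol. Per the submitters' processing notes, Trim Galore, STAR 2.7 and GRCm38 were used. The files that the authors deposited hold unnormalized counts of reads for Ensembl gene IDs in 17 libraries; the counting program, annotation, strand setting and treatment of duplicates are not given in the sources used here. Each table ended with 5 entries for reads assigned to no gene (37.7% to 76.2% of reads), which were kept out of library sizes and tests. GENCODE M21 named 54809 of 54838 gene IDs.

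One edgeR 4.0.16 model (R 4.3.3) covered the 4 groups, after filterByExpr at a minimum count of 10 and scaling by TMM; its quasi-likelihood F-test used robust dispersions. P-values were two-sided and adjusted by Benjamini-Hochberg over 24523 genes, with calls below 0.05. Ratios of related carriers used exact permutation tests (scipy 1.17.1). RPKM used merged exon lengths. Near-identical copies were sought with blastn 2.17.0+ (at least 95% identity over 200 bases). The procedure was tested on simulated data. DESeq2 1.42.0, limma-voom (limma 3.58.1), other scalings, filters, covariates and left-out libraries were alternatives. Replicates were checked for duplicate deposits, and the closest 2 of a group still differed at a chi-square of 18.2 per degree of freedom. Floors cover counting error only, since PCR reads without molecular identifiers are not independent molecules.

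Values in every library were given for the 4 carriers of smallest p in each comparison, the 5 of highest level per length and both members of 6 related pairs, some of these as means or ranges; 1 carrier is counted but not reported here. Of the 5 lists of surrounding genes, called genes were named; Timm9, Alas1, and the carriers named outside this rule (Slc25a34 and others) were chosen after their values were seen. The carriers, lists and motifs were chosen with earlier results of these data known.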

Additional observations from a re-analysis of the deposited data

Results flagged for a closer look

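In 57 sets of libraries (19 named carriers in the groups of 4 or 5), 5 had 1 library far from the rest of its group, by a gap that chance gives in about 1 in 20 groups. Slc25a11 was at 84.4 CPM in young control 3, against 223 to 244 CPM in the other young controls. Slc25a37 was at 75.2 CPM in young control 4, against 30.2 to 32.5 CPM. Slc25a47 was at 0.654 CPM in young control 1 and at 0 in the other young controls. Slc25a28 was at 46.3 CPM in young CCCP 3, against 12.4 to 20.3 CPM in the other CCCP libraries. Slc25a3 was at 367 CPM in old Mito-Q 5, against 504 to 538 CPM in the other Mito-Q libraries. Without young control 4, the age difference of Slc25a37 was -0.46 on the log2 scale, against -0.89 with it.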

How the results depend on the processing

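With the replicate block (replicate number as a block), 1 carrier was called with CCCP (Slc25a25, -3.47, edgeR adjusted p = 0.0391), none by age or with Mito-Q, and 3 surrounding genes in place of 1. Same-numbered libraries had deviations that correlated at -0.094 to 0.134, so no strong pairing was seen. The labels link them by number only, and such a check cannot exclude a weak shared factor. Carriers called by age numbered 1 without a filter on low counts (Slc25a25), 1 with only the groups compared (Slc25a25), 2 without young control 3 and young CCCP 3 (Slc25a25, Slc25a46) and 2 with DESeq2. In that order, these settings called 453 of 48965, 186 of 17124, 1271 of 23419 and 1260 of 18055 genes by age. The reported fit called 415 of 24523. With Mito-Q, 1 carrier was called without a filter (Slc25a25), where 178 of 48965 genes were called. With CCCP, Slc25a25 was the 1 carrier called with upper-quartile factors, without a filter, with limma-voom, and without young control 3 and young CCCP 3, and DESeq2 called 2. In that order, these settings called 194 of 24523, 324 of 48965, 209 of 24523, 170 of 23419 and 556 of 18975 genes. Leaving out 1 library gave 0 to 1 calls by age (1 without old control 1, Slc25a4), 0 with Mito-Q and 0 to 1 with CCCP (1 without young CCCP 3). Surrounding genes called numbered 4 without a filter, 3 at minimum count 30, 2 with the unassigned share as covariate, 0 with only the groups compared and 11 with DESeq2. Calls among the surrounding genes were not counted with single libraries left out.

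Over 57 fold changes of the 19 named carriers and 1062 alternatives, 961 kept direction and call, 16 gained a call and 85, in 20 fold changes, changed sign; none of the 20 was called in the reported fit. By age, Slc25a22 became 0.078 with the replicate block, and Slc25a3 -0.001 with library totals, -0.116 without young control 3 and young CCCP 3 and -0.044 with limma-voom. With Mito-Q, Slc25a11 became -0.057 (DESeq2 size factors, minimum count 30, and DESeq2), -0.131 (upper-quartile), -0.022 (library totals), -0.371 (replicate block), -0.149 (unassigned share) and -0.007 (limma-voom). Slc25a5 became -0.045 (DESeq2 size factors and DESeq2), -0.108 (upper-quartile), -0.002 (library totals) and -0.053 (minimum count 30); Slc25a3 became 0.029 with limma-voom, and Slc25a47 -0.348 with the replicate block and -0.876 with limma-voom. With CCCP, Slc25a11 became 0.011 (DESeq2 size factors and DESeq2), 0.091 (library totals) and 0.157 (unassigned share). Slc25a24 became 0.048 (DESeq2 size factors and DESeq2), 0.119 (library totals), 0.025 (minimum count 30), 0.060 (unassigned share) and 0.013 (only the groups compared). Slc25a18 became -0.439 (replicate block) and -0.314 (unassigned share), and Slc25a22 -0.173 (replicate block) and -0.673 (limma-voom). Slc25a28 became -0.024 (no filter), -0.229 (unassigned share), -0.428 (without young control 3 and young CCCP 3) and -0.121 (limma-voom), Slc25a4 0.041 (unassigned share) and Slc25a40 0.004 (without both libraries 3). The cause was not tested.

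Leaving out 1 library in turn gave these ranges where a sign changed. By age they were -3.25 to 0.106 (Slc25a18), -0.995 to 0.010 (Slc25a22), -0.339 to 0.083 (Slc25a28) and -0.125 to 0.232 (Slc25a3). With Mito-Q they were -0.158 to 0.299 (Slc25a11), -0.071 to 0.348 (Slc25a13), -0.240 to 0.126 (Slc25a3), -0.283 to 0.209 (Slc25a40), -0.260 to 1.39 (Slc25a47) and -0.404 to 0.242 (Slc25a5). With CCCP they were -0.273 to 0.237 (Slc25a11), -0.065 to 0.262 (Slc25a12), -0.377 to 1.83 (Slc25a18), -0.297 to 0.440 (Slc25a22), -0.237 to 0.192 (Slc25a24), -0.396 to 0.308 (Slc25a28), -0.291 to 0.299 (Slc25a37) and -0.281 to 0.002 (Slc25a39). Of 18 log2 ratios, 8 changed sign: Slc25a12/Slc25a13 ran from -0.328 to 0.333 by age, -0.019 to 0.512 with Mito-Q and -0.016 to 0.528 with CCCP; Slc25a18/Slc25a22 from -2.22 to 0.539 by age and -0.802 to 1.36 with Mito-Q. Slc25a28/Slc25a37 ran from -0.289 to 0.234 with CCCP, and Slc25a39/Slc25a40 from -0.203 to 1.02 with Mito-Q and -0.122 to 1.07 with CCCP. With the unassigned share as covariate or without old control 1, the all-gene medians by age and with Mito-Q changed sign. Library totals moved the all-gene median log2 fold change with CCCP from 0.21 to 0.33, and upper-quartile factors moved it from 0.16 to 0.28 by age and from -0.12 to -0.25 with Mito-Q. With 3 to 5 libraries a group, median standard errors of 0.54 to 0.61 limit what these data can show for a carrier.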
